A study of Mus musculus with 46 samples.

Results

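Counts were followed for 10 genes that mark the endothelium of the liver sinusoids, out of 55487 gene identifiers counted: Dnase1l3, Stab1, Stab2, Lyve1, Clec4g, Fcgr2b, Oit3, Gpr182, Mrc1 and Cd300lg. The genes were listed by symbol and joined to their Ensembl identifiers. The list was drawn up with results of these libraries known, and the comparison of PTP-r with vehicle in liver is therefore a description for these genes, with no p-value given. All 10 passed the filter on low counts in both organs, in liver and in white adipose tissue (WAT).

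Liver and WAT came from obese wild-type C57BL/6 mice of both sexes, and polyA RNA was sequenced. All animals, controls included, were put on a high-fat diet at 7 weeks of age and stayed on it for 21 weeks. Subcutaneous injections started in week 16 and lasted 5 weeks, with either phosphate-buffered saline (vehicle) or PTP-r at 1 mg/kg per day. The labels leave the code name PTP-r unexplained, in a series whose title concerns a prohibitin-directed peptide of mixed chirality. In each organ there were 6 libraries of female mice given PTP-r, 6 of female vehicle, 6 of male PTP-r and 5 of male vehicle, 46 in all. The fat depot is not named, and nothing in the labels ties each library to its own mouse. The p-values therefore refer to spread among libraries, which may be technical. Reads on genes summed to 20266425 to 57518893 per liver library and 20991069 to 32219751 per WAT library. Summed hepatocyte markers were at 89300 to 118000 CPM (reads of a gene scaled to a common library total) in the liver libraries and 5.22 to 530 CPM in WAT, and summed adipocyte markers at 9290 to 16300 CPM in WAT and 15 to 48.9 CPM in liver.

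Liver sinusoids are lined by a thin endothelium pierced by open pores and resting on little basement membrane. Its cells take up waste molecules, immune complexes and denatured matrix from portal blood through a set of scavenger receptors, and are a main site of blood clearance in mammals. Several of the same receptors are also made by tissue macrophages and by lymphatic endothelium, so a gene of this group can have another source in fat.

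Among the members, Stab1 and Stab2 encode stabilin 1 and stabilin 2, large related scavenger receptors of which stabilin 2 is the main hyaluronan receptor of the sinusoids. Mrc1 encodes the mannose receptor and Lyve1 a hyaluronan receptor best known from lymphatic vessels. Clec4g encodes the C-type lectin LSECtin. Fcgr2b encodes the inhibitory receptor for IgG that clears small immune complexes in the sinusoids and is also found on B cells. Dnase1l3 encodes a secreted nuclease that degrades DNA in chromatin. Gpr182 encodes an atypical chemokine receptor of endothelium. Cd300lg encodes nepmucin, a glycoprotein of capillary and lymph node endothelium. Oit3 encodes a secreted protein with a zona pellucida domain.

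DNA upstream of 3 members is shown. Stab1 and Stab2 are paralogues whose levels in the 2 organs were opposite, and Clec4g had the most liver-restricted counts of the group. RefSeq promoters on GRCm38.p6 were found for 5 of the 10 members, namely these and Fcgr2b and Mrc1. Each run reads 5′ to 3′ on the strand of the gene and ends just before the first transcribed base in GENCODE M21. Capitals mark matches on either strand to the ETS core (AGGAAG or CGGAAG) or to the MAF half-site (TGCTGA), motifs of transcription factor families at work in endothelium.
Stab1, chr14:31168642-31168891, minus strand: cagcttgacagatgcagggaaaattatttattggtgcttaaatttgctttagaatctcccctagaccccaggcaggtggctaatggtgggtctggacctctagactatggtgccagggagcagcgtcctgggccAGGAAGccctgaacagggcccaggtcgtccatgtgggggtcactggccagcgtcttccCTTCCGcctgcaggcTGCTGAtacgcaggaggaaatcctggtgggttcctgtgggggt
Stab2, chr10:87008026-87008192, minus strand: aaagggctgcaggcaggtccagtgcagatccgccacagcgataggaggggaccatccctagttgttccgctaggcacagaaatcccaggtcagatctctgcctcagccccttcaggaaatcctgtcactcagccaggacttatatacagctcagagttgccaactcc
Clec4g, chr8:3720652-3720901, minus strand: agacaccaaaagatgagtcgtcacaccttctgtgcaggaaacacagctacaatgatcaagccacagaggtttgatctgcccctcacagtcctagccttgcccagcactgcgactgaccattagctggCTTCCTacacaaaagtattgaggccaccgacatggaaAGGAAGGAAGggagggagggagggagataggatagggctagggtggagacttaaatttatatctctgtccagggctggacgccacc

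In the 250 bases before the RefSeq start, the ETS core was found at 2 places in Stab1, 1 in Stab2, 3 in Clec4g, of which 2 overlap each other, and 3 in Mrc1, and at none in Fcgr2b. The Stab2 match lies between the run shown and the RefSeq start, which is 83 bases inside the first exon of GENCODE. The MAF half-site was found once, in Stab1. The GATA motif (AGATAA or TGATAA) was found in none of the 5. Of 27025 promoters of this length, 39% held the ETS core, 15.8% the MAF half-site and 17% the GATA motif. These are matches of letters and not shown to be bound.

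In the liver, all 10 genes had lower mean levels with PTP-r than with vehicle, in females and in males. Averaged over the sexes, the difference ran from -0.28 on the log2 scale for Stab2 (SE 0.0723) to -0.82 for Dnase1l3 (SE 0.0846), that is -17.7% to -43.5%. The median over the members was -0.52 in females, -0.47 in males and -0.45 for the mean of the sexes, beside a median of 0 over all 15892 genes tested. The calls of the fit on this contrast are counted only for completeness, since the contrast was known when the list was made, and nothing is read from them. In edgeR's quasi-likelihood fit with Benjamini-Hochberg adjustment over all genes, 2 of 10 members were called lower in females (0.0881% of all genes), 6 in males (2.45%) and 9 for the mean of the sexes (2.4%). The 2 in females were Dnase1l3 and Cd300lg, and Lyve1 was the one not called for the mean of the sexes. In females the count was 1 without vehicle library 3 or 10 or PTP-r library 5 or 11, and 6 without PTP-r library 8 or vehicle library 12. Bulk RNA cannot tell fewer endothelial cells from less RNA per cell.

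**Figure D1:**
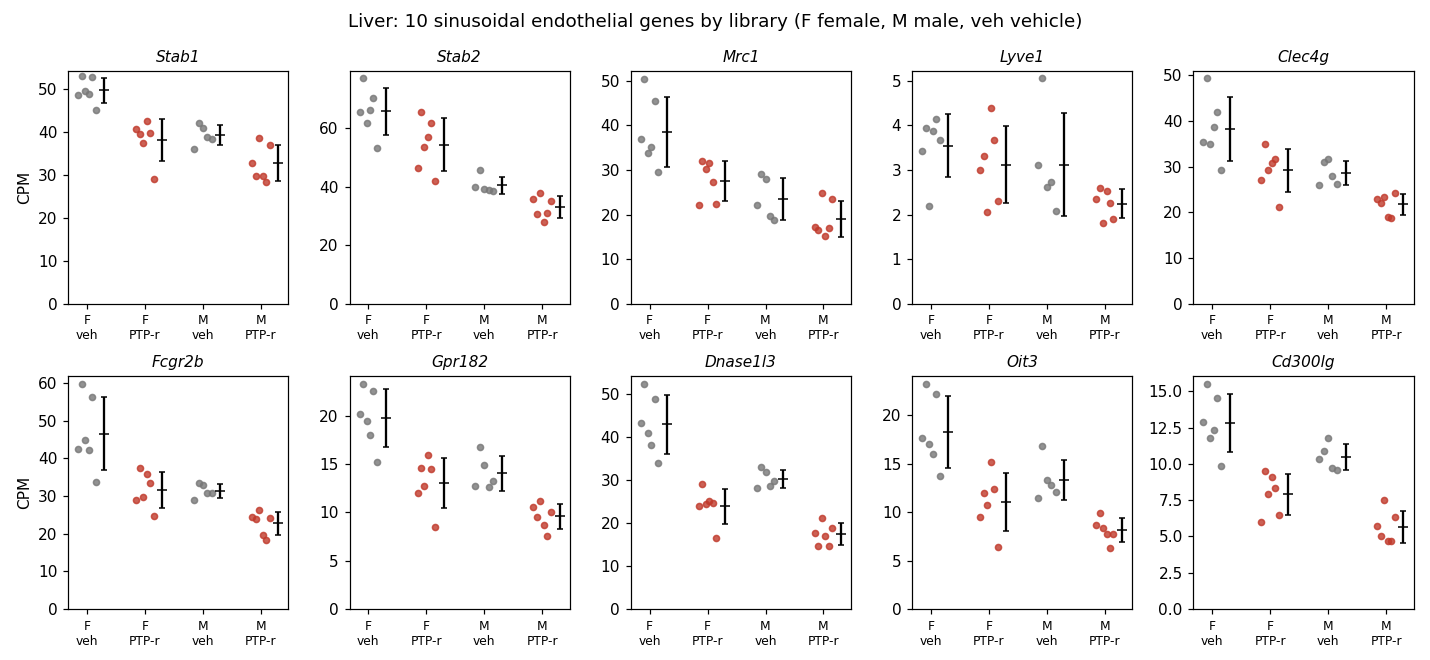
Level in liver of each of the 10 genes, in CPM on axes that start at 0, with 1 point per library, grey for vehicle and red for PTP-r, and black bars for mean ± SD. Dnase1l3 and Cd300lg separate completely in both sexes, whereas Lyve1 and Mrc1 overlap in both.

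Dnase1l3, the secreted nuclease (ENSMUSG00000025279, GRCm38 chromosome 14, 7964533 to 7994573), lay furthest from vehicle in females and for the mean of the sexes, and second to Cd300lg in males. In females it was at 16.6 to 29.1 CPM with PTP-r (median 24.5) and at 34.1 to 52.4 CPM with vehicle (median 42.2). In males the PTP-r libraries ranged from 14.6 to 21.3 CPM (median 17.4), and the vehicle libraries were at 28.1, 33, 32, 28.7 and 29.9 CPM. Every PTP-r library was below every vehicle library of its sex. The log2 difference was -0.85 in females (SE 0.117) and -0.80 in males (SE 0.122).

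Cd300lg, which encodes nepmucin (ENSMUSG00000017309, chromosome 11, 102041509 to 102055620), separated as fully at a lower level. In females PTP-r libraries had 6.01 to 9.52 CPM (median 8.13) and vehicle libraries 9.87 to 15.5 CPM (median 12.6). In males PTP-r libraries had 4.68 to 7.52 CPM (median 5.36), and vehicle libraries had 10.3, 10.9, 11.8, 9.73 and 9.56 CPM. The gap between the groups was narrow in females, where vehicle library 12 was the lowest of its group. The log2 difference was -0.70 in females (SE 0.128) and -0.88 in males (SE 0.135).

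Oit3 (ENSMUSG00000009654, chromosome 10, 59422958 to 59441778) came after Dnase1l3 and Cd300lg by the size of its difference for the mean of the sexes and in males, and after Dnase1l3 alone in females. Female PTP-r libraries were at 6.42 to 15.2 CPM (median 11.4) and vehicle libraries at 13.7 to 23.2 CPM (median 17.3). Here the groups overlapped through PTP-r library 8, the highest of its group. In males PTP-r libraries were at 6.25 to 9.96 CPM (median 8.04), all below the vehicle libraries at 11.5, 16.8, 13.3, 12.8 and 12.1 CPM. The log2 difference was -0.73 in females (SE 0.162) and -0.71 in males (SE 0.17).

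Gpr182, the atypical chemokine receptor gene (ENSMUSG00000058396, chromosome 10, 127747276 to 127751732), was at 8.53 to 15.9 CPM with PTP-r in females (median 13.6) and 15.2 to 23.3 CPM with vehicle (median 19.8). In males it was at 7.52 to 11.2 CPM with PTP-r (median 9.79) and at 12.7, 16.8, 14.9, 12.6 and 13.2 CPM with vehicle. The male groups did not overlap, and in females PTP-r library 8 reached above the lowest vehicle library. The log2 difference was -0.60 (SE 0.129) and -0.55 (SE 0.136).

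Fcgr2b, the inhibitory IgG receptor gene (ENSMUSG00000026656, chromosome 1, 170958617 to 170976547), was at 24.6 to 37.4 CPM with PTP-r in females (median 31.5) and 33.8 to 59.8 CPM with vehicle (median 43.6). In males it was at 18.4 to 26.3 CPM with PTP-r (median 24), below vehicle libraries at 28.9, 33.4, 32.9, 30.9 and 30.7 CPM. Its log2 difference was -0.56 in females and -0.46 in males. Summed B cell markers, another source of this gene, were at 6.95 to 10.5 CPM under PTP-r and 5.39 to 20.7 CPM with vehicle in female liver, and at 4.73 to 10.9 and 3.49 to 5.33 CPM in males. Their median was lower with PTP-r in females (9.79 against 12.95 CPM), as was that of Fcgr2b, and higher in males (5.93 against 4.49 CPM), where that of Fcgr2b was lower. The part of B cells in the Fcgr2b values was not tested.

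Clec4g, the lectin gene (ENSMUSG00000074491, chromosome 8, 3707064 to 3720651), showed the same log2 difference of -0.39 in both sexes. It was at 21.3 to 34.9 CPM with PTP-r in females (median 30) against 29.2 to 49.5 CPM with vehicle (median 37.1). In males it was at 18.8 to 24.3 CPM (median 22.6) against 26.1, 31, 31.8, 27.9 and 26.2 CPM. The groups overlapped in females only.

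The stabilins differed less from vehicle. Stab1 (ENSMUSG00000042286, chromosome 14, 31139013 to 31168641) was at 28.9 to 42.4 CPM with PTP-r in females (median 39.6) and 45 to 52.9 CPM with vehicle (median 49.2), with no overlap. In males it overlapped, at 28.3 to 38.4 CPM with PTP-r (median 31.3) and 36, 42.1, 40.8, 38.7 and 38.2 CPM with vehicle. Stab2 (ENSMUSG00000035459, chromosome 10, 86841198 to 87008025) had the reverse arrangement. It overlapped in females, at 42 to 65.6 CPM with PTP-r (median 55.2) and 53.2 to 77.2 CPM with vehicle (median 65.9). In males it was at 28 to 37.9 CPM with PTP-r (median 33.3), just below vehicle libraries at 39.9, 45.6, 39.2, 38.9 and 38.6 CPM.

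Mrc1, the mannose receptor gene (ENSMUSG00000026712, chromosome 2, 14229392 to 14332057), and Lyve1 (ENSMUSG00000030787, chromosome 7, 110850607 to 110863239) overlapped in both sexes. Mrc1 was at 22.2 to 32 CPM under PTP-r and 29.6 to 50.5 CPM with vehicle in females, and 15.2 to 24.8 and 18.9 to 29.1 CPM in males. Lyve1 had the fewest reads, 46 to 187 per liver library, and lay between 1.81 and 5.06 CPM. It was at 2.05 to 4.39 CPM under PTP-r and 2.19 to 4.15 CPM with vehicle in females, and 1.81 to 2.6 and 2.08 to 5.06 CPM in males. The 5.06 CPM was in male vehicle library 4, where the median of the group was 2.73 CPM. Its log2 difference was -0.19 in females (SE 0.20) and -0.48 in males (SE 0.212). Leaving out 1 library at a time gave -0.31 to -0.10 in females and -0.61 to -0.24 in males. Both genes are also made by resident tissue macrophages. The summed markers of those cells were at 104 to 131 CPM under PTP-r and 104 to 153 CPM with vehicle in female liver, and at 59.4 to 108 and 65.9 to 93.6 CPM in males. Of their 7 markers, 5 passed the filter and 1, Pf4, rose for the mean of the sexes (0.83). By sex, 1 of the 5 was called higher in males (median 0.51) and 0 in females (median 0.03). Among all 15892 genes, 1221 were called in males, 390 of them lower, and 26 in females in either direction. Cbr2 and Ccl8 were at 0 in some liver libraries. The part of these cells in the Mrc1 and Lyve1 values was not tested.

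The groups did not overlap for 3 of 10 members in females and 7 of 10 in males, all with PTP-r lower. Of all genes tested, 0.302% and 2.13% had every PTP-r library below every vehicle library. The contrast was known when the list was made, so nothing is read from these counts or from the calls that follow. Members were also high together in single libraries. Female vehicle library 3 was the highest of its group for 9 of 10 members, male vehicle library 4 for 8 and male PTP-r library 5 for 7. In 2 of the female libraries the members were low as a group. PTP-r library 11 was the lowest of its group for 7 of 10 members and vehicle library 12 for 9 of 10. These are also the liver libraries with skeletal muscle markers, at 231 and 341 CPM in sum, where the medians of their groups were 1.14 and 0.818 CPM. PTP-r library 1 held pancreas markers at 342 CPM. Without these 3 libraries, 1 of 10 members passed in females, 8 in males and 9 for the mean of the sexes.

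The difference between the sexes in the response was tested for all 10 genes. None of the 10 passed in edgeR, DESeq2 or limma voom, and none had an unadjusted p under 0.05. In edgeR 0.107% of all genes passed, and 1588 of 15892 had an unadjusted p under 0.05. The female minus male difference was smallest for Clec4g (0.00, 95% interval -0.37 to 0.37) and Stab2 (0.01, -0.27 to 0.30). It was -0.04 for Dnase1l3 (-0.37 to 0.29), 0.18 for Cd300lg (-0.18 to 0.55) and 0.30 for Lyve1 (-0.28 to 0.87).

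**Figure D2:**
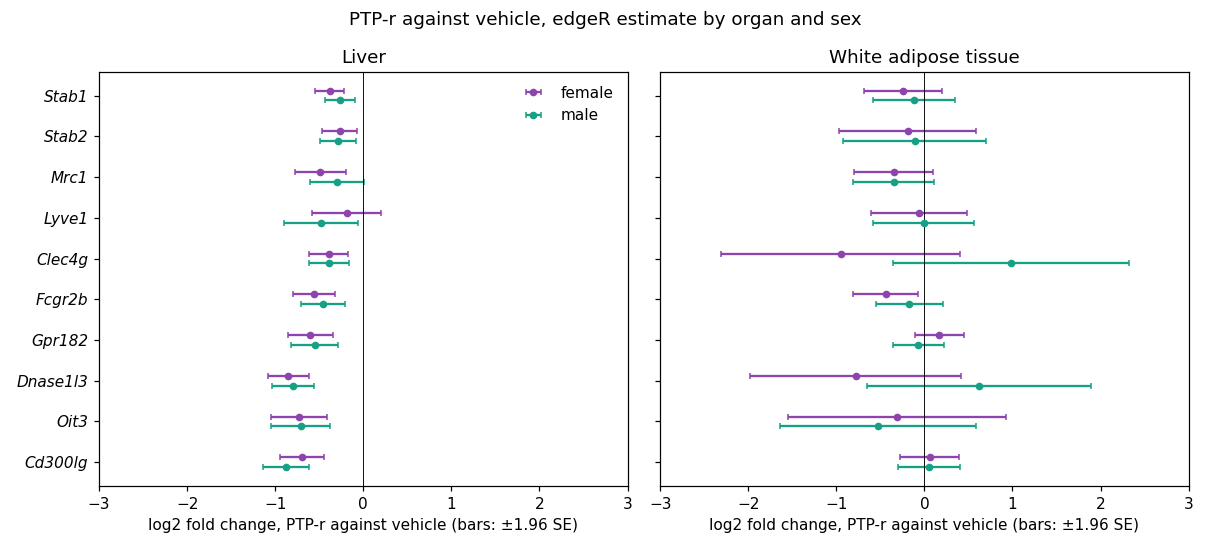
Log2 difference between PTP-r and vehicle for each gene in females (purple) and males (green), in liver on the left and white adipose tissue on the right, with 95% intervals from the standard error. In liver all 20 points are below 0, while in fat points lie on both sides with wider intervals.

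Reads were also compared between members within a library, which removes differences that all of them share. Stab2 was taken as the denominator after its values were seen, as the gene with the smallest difference, so these ratios are a description. In females there were 0.395 to 0.515 reads of Dnase1l3 per Stab2 read with PTP-r and 0.576 to 0.694 with vehicle. In males the ranges were 0.471 to 0.608 and 0.703 to 0.816. Cd300lg had 0.130 to 0.160 reads per Stab2 read with PTP-r and 0.185 to 0.206 with vehicle in females, and 0.150 to 0.198 and 0.240 to 0.302 in males. For both genes the groups were apart in both sexes. The ratio was also apart for Fcgr2b in females and for Gpr182 in males. For Stab1 the medians were 0.693 with PTP-r and 0.743 with vehicle in females, and 0.992 and 0.991 in males, with overlap. The ratios for Clec4g, Lyve1, Mrc1 and Oit3 overlapped in both sexes as well.

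**Figure D3:**
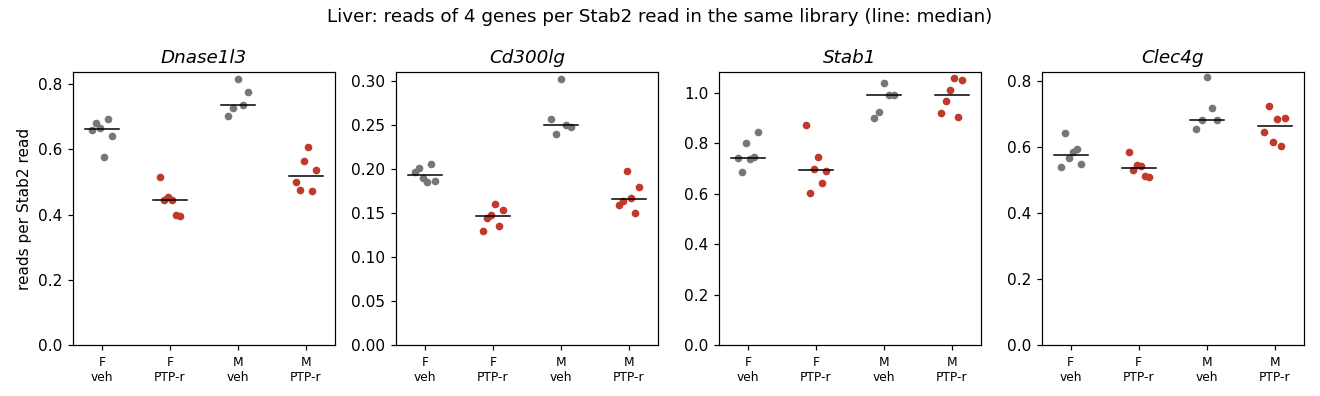
Reads of Dnase1l3, Cd300lg, Stab1 and Clec4g per Stab2 read in the same liver library, 1 point per library, with a line at the median. For Dnase1l3 and Cd300lg the PTP-r points lie below all vehicle points of the sex, and for Stab1 and Clec4g the groups overlap.

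Other genes enriched in sinusoidal endothelium were read from a list of 16. For the mean of the sexes 9 were lower and 0 higher, with a median log2 difference of -0.55, against 2.4% lower and 5.18% higher among all genes. Like the members, genes of this kind were known to be lower in these libraries when the list was made. The 3 with the smallest p were Ntn4, a secreted netrin (-0.80), and Flt4 (-0.69) and Kdr (-0.72), receptors of vascular growth factors. The angiocrine ligand genes Bmp2 (-0.57) and Bmp6 (-0.69), by which these cells act on hepatocytes, were among the 9, with F8, Adam23, Plxnc1 and Ehd3. Wnt2, Wnt9b and Rspo3, ligand genes on the same list, were not among the 9. Of the 16 genes 14 were negative and 2 positive, the highest at 0.29. Of the transcription factors that set sinusoidal identity in mice, Gata4 was at -0.20 (95% interval -0.41 to 0.00, edgeR adjusted p = 0.254) and Maf at -0.13 (-0.28 to 0.02, edgeR adjusted p = 0.366), and neither passed.

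Of 12 genes of all endothelium, 5 fell, namely Tek (-0.64), Pecam1 (-0.47), Eng (-0.30), Cldn5 (-0.32) and Robo4 (-0.30), with a median of -0.27. Of the 12, 11 were negative and 11 had an unadjusted p under 0.05 (edgeR), as did 3415 of all 15892 genes. In males alone 3 of these genes were called lower and 1 higher. Of 11 tested genes of continuous capillaries, Ly6a rose (0.86) and Lama4 fell (-0.37), with a median of -0.08. Of 5 tested lymphatic markers, 1 fell, which was Flt4 again, and all 5 were negative, with a median of -0.40. The mean log2 level of the members exceeded that of the 12 pan-endothelial genes by 1.29 ± 0.119 with PTP-r and 1.52 ± 0.0929 with vehicle in females (SD, n = 6 each), and by 1.10 ± 0.092 (n = 6) and 1.39 ± 0.0794 (n = 5) in males. The male groups did not overlap on this measure, the highest with PTP-r being 1.25 and the lowest with vehicle 1.28, and the female groups did. No test was made, since the members were chosen on the same contrast.

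Of 15 tested scavenger receptors outside the group, 2 rose for the mean of the sexes and 0 fell, with a median of 0.02. The 2 were Marco (1.16), a receptor of Kupffer cells, and Cd68 (0.78), a macrophage lysosomal protein. Asgr1 and Asgr2, the hepatocyte receptors for desialylated glycoproteins, were both at -0.01. In males 4 of the 15 were called higher, and in females 0. Of 8 macrophage markers 4 rose, namely Cd68, Lyz2 (0.73), C1qb (0.54) and C1qc (0.50). By sex, 5 of the 8 were called higher in males (median 0.90) and 0 in females (median 0.09). Among all 15892 genes, 1221 were called in males, 390 of them lower, and 26 in females in either direction. With so few calls in females, a count of 0 there says little. For the female minus male response 0 of these markers passed, and 7 had an unadjusted p under 0.05 (edgeR), as did 1588 of all 15892 genes. Summed, they were at 147 to 323 CPM under PTP-r and 77.4 to 158 CPM with vehicle in male liver, and at 250 to 385 and 196 to 356 CPM in females. None of the 8 was at 0 in any liver library. Of 7 Kupffer cell markers 2 rose, Cd5l (0.70) and Marco. Their list had a median of 0.60 in males, with 2 called higher, and of 0.03 in females, with 0 called. Of 7 B cell markers none passed for the mean of the sexes (edgeR, 1 with an unadjusted p under 0.05). Of 6 stellate cell markers 1 fell, Ecm1 (-0.26). The B cell markers differed in sign between the sexes, with all 7 negative in females (median -0.42, none passing, 1 with an unadjusted p under 0.05) and all 7 positive in males (median 0.58), where Cd22 rose (1.01). Of 6 hepatocyte markers none passed (edgeR, 3 with an unadjusted p under 0.05), with a median of -0.11. Among all 15892 genes, 3415 had an unadjusted p under 0.05 for the mean of the sexes and 1378 in females (edgeR). The part of these cells in the values of the members was not tested.

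Across the 23 liver libraries, deviations from the group means were compared as log2 CPM. Pearson's r of a member with the mean of the others ran from 0.806 for Stab1 to 0.951 for Gpr182, and was 0.339 for Lyve1. Outside all lists, the genes most like the members were Ptprb (0.902), a phosphatase of vascular endothelium, Cyp4b1 (0.895), Adgrf5 (0.877), Fam174b (0.835) and Tinagl1 (0.829). Their log2 differences between PTP-r and vehicle for the mean of the sexes were -0.65, -0.65, -0.35, -0.31 and -0.10. Libraries that stood apart, such as those with muscle markers, are among these 23 points and shape all of these values.

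Sex and organ were also compared under vehicle. The genes were listed as markers of the liver sinusoids with results of these libraries known, so these comparisons may not be independent of the choice. In vehicle liver 8 of 10 members were higher in females than in males, where 19.3% of all genes were (edgeR). The largest differences were for Mrc1 (log2 0.72, SE 0.157, edgeR adjusted p = 0.00108) and Stab2 (0.70, SE 0.106, edgeR adjusted p = 2.43e-05). Fcgr2b (0.57), Dnase1l3 (0.50), Gpr182 (0.50), Clec4g (0.42) and Stab1 (0.34) also passed, as did Oit3 (0.46, edgeR adjusted p = 0.0363). The Oit3 call ended without female vehicle library 3 or 10, or male vehicle library 3, 9, 10 or 12. For Stab2 the lowest female library, at 53.2 CPM, was above the highest male one, at 45.6 CPM. Cd300lg (0.29, edgeR adjusted p = 0.0875) passed without female vehicle library 12, at 0.36 (edgeR adjusted p = 0.0366). Lyve1 (0.19, 95% interval -0.22 to 0.59) did not pass. Other lists were also higher in females: 9 of 16 other sinusoidal genes passed (median log2 0.37), 6 of 12 genes of all endothelium (0.28), 7 of 8 macrophage markers (1.20), all 7 B cell markers (1.35) and 4 of 6 stellate cell markers (0.39), against a median of 0.48 for the members. Of 6 hepatocyte markers 3 were lower in females and 0 higher. The part of these cells in the sex difference of the members was not tested.

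Per length, the order of the members in female vehicle liver was led by Clec4g at 15.6 ± 2.82 RPKM (CPM divided by the exon length in kilobases; SD, n = 6). Dnase1l3 (8.35 ± 1.32 RPKM), Fcgr2b (8.04 ± 1.68), Stab2 (7.51 ± 0.923), Oit3 (6.56 ± 1.33) and Mrc1 (6.06 ± 1.23) came next, then Gpr182 (5.01 ± 0.751), Stab1 (4.82 ± 0.286) and Cd300lg (4.68 ± 0.735). From Dnase1l3 down to Cd300lg, each gene differed from the next by less than the larger of their SDs. Lyve1 was lowest at 1.21 ± 0.242 RPKM.

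Under vehicle all 10 members differed between the organs, where 84% of all genes did (edgeR), 40.2% higher and 43.8% lower in liver. On a scale set over both organs, 6 were higher in liver. Clec4g was at 52.6 ± 9.70 CPM in female liver and 0.247 ± 0.123 CPM in female WAT, with 1 to 46 reads in any WAT library (log2 liver minus WAT over both sexes 7.61, SE 0.258, edgeR adjusted p = 5.15e-28). Oit3 (5.29), Dnase1l3 (4.61) and Stab2 (4.34) followed on the log2 scale. Gpr182 (0.93, SE 0.103) and Fcgr2b (0.50, SE 0.119) were only a little higher.

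The other 4 were higher in fat. Cd300lg was at 17.6 ± 2.79 CPM in female liver and 207 ± 47 CPM in female WAT (SD, n = 6 each; log2 -3.61, SE 0.126, edgeR adjusted p = 1.58e-27). Lyve1 (-2.30), Stab1 (-1.63) and Mrc1 (-1.41) were lower in liver too. Stab1 and Stab2, whose upstream sequences are printed above, thus went opposite ways, with Stab1 at 152 ± 29.1 CPM and Stab2 at 2.96 ± 1.40 CPM in female WAT. Summed continuous capillary markers were at 3550 to 4550 CPM in vehicle WAT and 53.6 to 95.6 CPM in vehicle liver, and summed macrophage markers at 744 to 3980 and 77.4 to 356 CPM. The part of these cells in the organ differences was not tested.

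**Figure D4:**
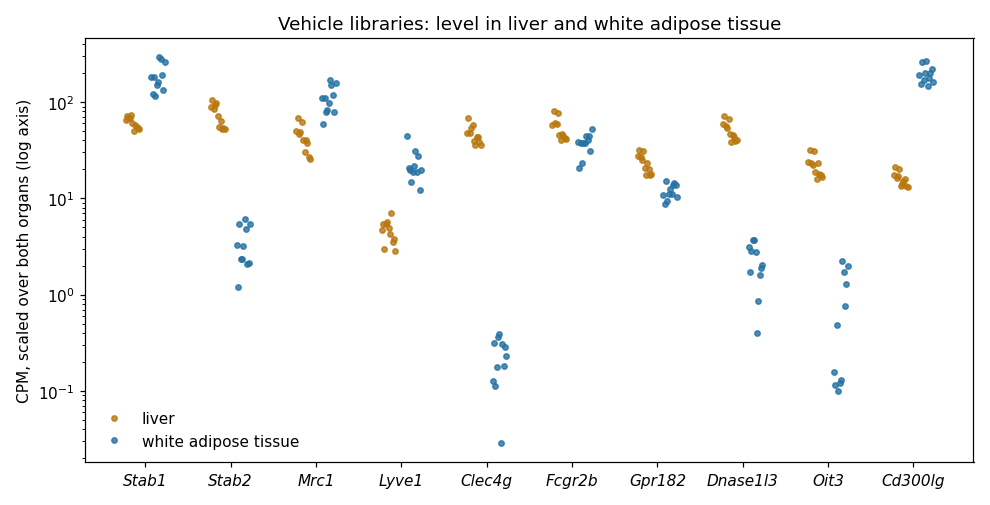
Level of each gene in vehicle libraries of liver (brown) and white adipose tissue (blue), in CPM scaled over both organs, on a log axis with 1 point per library. Clec4g, Oit3, Dnase1l3 and Stab2 are far higher in liver, Cd300lg, Lyve1, Stab1 and Mrc1 are higher in fat, and Gpr182 and Fcgr2b lie close together.

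In WAT no member passed for PTP-r against vehicle in females, in males or for the mean of the sexes (edgeR), where 0%, 0.873% and 7.08% of all genes did. Some WAT libraries held markers of other tissues, and these sums are set against the median of each group. Muscle markers summed to 1030 CPM in library 1, 213 in library 4 and 293 in library 5 of the females given PTP-r (median 162.5), and to 271 CPM for male vehicle library 3 (median 25.8). Epididymis markers summed to 90.1 CPM for male PTP-r library 2 (median 0.8) and 66.7 CPM for male vehicle library 9 (median 5.66). Without these 6 libraries, and so with fewer per group, 0 genes were called in each of the 3 comparisons (edgeR), members included, against 0, 155 and 1258 with them. For the mean of the sexes 2 of 10 had an unadjusted p under 0.05 (edgeR, all libraries), Fcgr2b and Mrc1, as did 4807 of all 17765 genes. DESeq2 called none of the 10 and limma voom called Fcgr2b (-0.39, adjusted p = 0.0486). The median over the members was -0.27 in females, where 1 had an unadjusted p under 0.05, Fcgr2b. In males none did. Among all 17765 genes, 2909 did in females and 3698 in males. In neither sex did the groups separate for any member. Of all genes tested, 0.771% in females and 2.33% in males had every PTP-r library below every vehicle library, and 0.478% and 1.77% had every one above. Levels in fat spread widely between libraries of a group, so the intervals are wider than in liver for most members.

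Cd300lg and Gpr182, which are expressed well in fat, had the narrowest intervals there. Cd300lg was at 236 to 367 CPM with PTP-r (median 276) and 209 to 368 CPM with vehicle (median 269) in female WAT. In males PTP-r libraries were at 172 to 335 CPM (median 251) and vehicle libraries at 198, 241, 266, 296 and 214 CPM. The groups overlapped throughout, and the log2 difference for the mean of the sexes was 0.06 (95% interval -0.19 to 0.30). Gpr182 was at 13.4 to 21.9 CPM under PTP-r and 11.9 to 20.7 CPM with vehicle in females, and 13.4 to 19.8 and 13.9 to 19.3 CPM in males. Its log2 difference was 0.05 (-0.15 to 0.25).

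The responses of the 2 organs are given side by side as a description, since the liver responses were known when the genes were chosen. The liver minus WAT difference in log2 response was -0.87 for Cd300lg (SE 0.16) and -0.65 for Gpr182 (SE 0.142). These are the 2 of 10 members that the fit over both organs called, where 2.4% of all genes were called with a lower response in liver, and nothing is read from the count. For Dnase1l3 the difference was -0.75 with a 95% interval of -1.55 to 0.04. Leaving out 1 library at a time gave -0.88 to -0.17 for Dnase1l3. Its level in male PTP-r WAT reached 10.8 CPM in library 7, where the median of that group was 1.34 CPM. The liver minus WAT difference was -0.23 for Fcgr2b (-0.55 to 0.10), -0.17 for Stab1 (-0.52 to 0.18) and -0.06 for Mrc1 (-0.46 to 0.34).

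**Figure D5:**
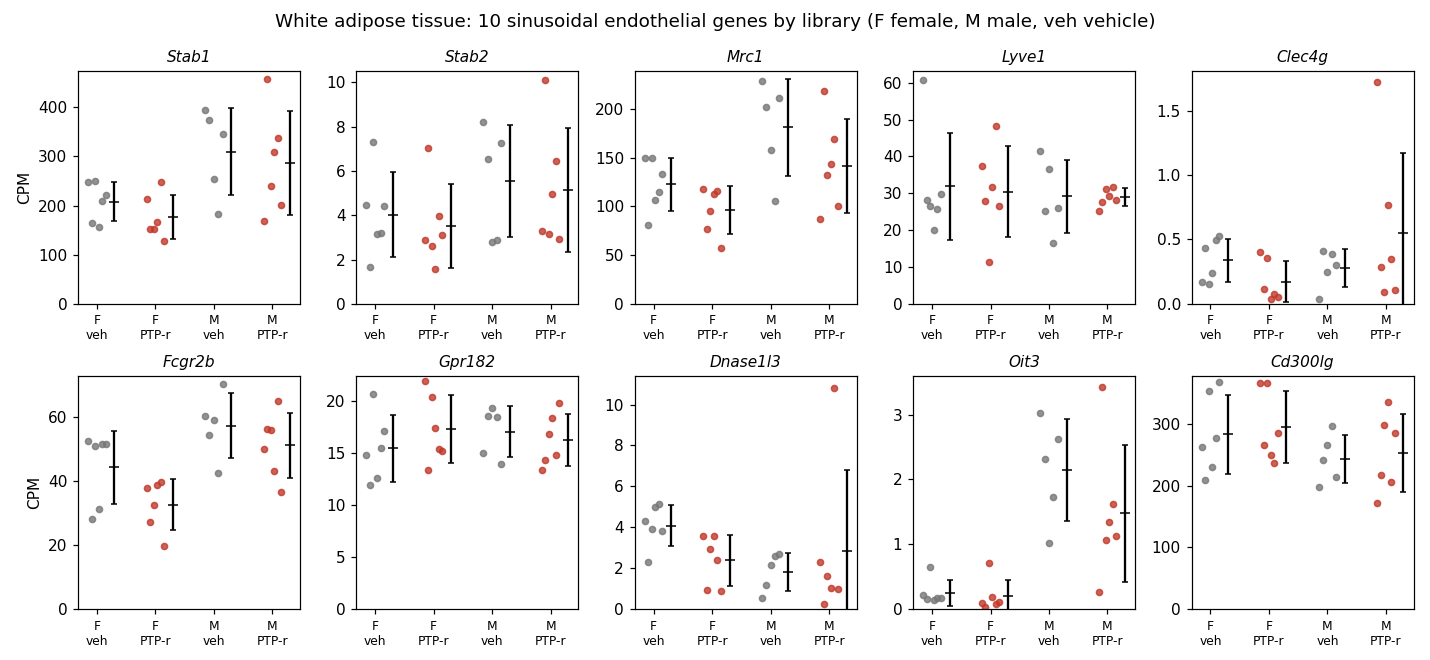
Level in white adipose tissue of each of the 10 genes, in CPM on axes that start at 0, with 1 point per library, grey for vehicle and red for PTP-r, and black bars for mean ± SD. The groups overlap for every gene in both sexes, and single libraries stand out for Dnase1l3, Clec4g and Lyve1.

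In male WAT, macrophage markers varied widely between libraries. Summed macrophage markers were highest in PTP-r libraries 2 and 7 and vehicle libraries 12, 3 and 4, at 4230, 3690, 3980, 3650 and 3090 CPM. Stab1 in these libraries was at 458, 338, 345, 394 and 375 CPM and Oit3 at 3.42, 1.62, 2.63, 3.02 and 2.32 CPM. The sums were lowest in PTP-r library 1 and vehicle library 10, at 1150 and 1550 CPM. There Stab1 was at 169 and 182 CPM and Oit3 at 0.262 and 1.73 CPM. Stab1 was thus higher in each of the first 5 libraries than in these 2, while Oit3 was not, being lower in PTP-r library 7 than in vehicle library 10. These libraries were picked by their marker sums after the values were seen. PTP-r library 7, with macrophage markers at 3690 CPM, also held B cell markers at 430 CPM, where the other male PTP-r libraries had 13.6 to 20.5 CPM. It had the most Dnase1l3 of any WAT library, 10.8 CPM, and the most Fcgr2b of its group, 64.8 CPM. The part of these cells in the WAT values was not tested.

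Between the sexes in vehicle WAT, 1 of 10 members passed, where 26.9% of all genes did (edgeR). Oit3 was at 0.137 to 0.651 CPM in females (median 0.171) and at 3.02, 2.32, 1.02, 1.73 and 2.63 CPM in males, without overlap (log2 female minus male -3.07, SE 0.623, edgeR adjusted p = 0.00119). The call rests on 4 to 17 reads per female library and 25 to 86 per male library. Summed macrophage markers were at 744 to 1660 CPM in these female libraries and 1550 to 3980 CPM in the male ones. Stab1 (-0.58, edgeR adjusted p = 0.0759) and Mrc1 (-0.56, edgeR adjusted p = 0.0832) passed only without male vehicle library 10 among the fits that left out 1 library, at -0.72 (edgeR adjusted p = 0.0274) and -0.71 (edgeR adjusted p = 0.0302). The response to PTP-r did not differ between the sexes in WAT for any of the 10 members (edgeR, DESeq2 and limma voom; none with an unadjusted p under 0.05), where 0% of all genes passed in edgeR.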

How the data were processed

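The authors deposited counts of reads per gene, 1 table per library with 1 column without strand and 1 for each strand. STAR 2.4.0i and HTSeq are the tools named, and mm10 the build, per the submitters' processing notes; the annotation release is not given in the sources used here. The column holding 96.0% to 96.5% of stranded reads was used. Reads that name no gene (18.4% to 28.9%) stayed out.

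Groups follow organ, sex and treatment in the labels. The members and lists were chosen with earlier results of these data known. Identifiers were joined to GENCODE M21 (GRCm38, the same build as mm10). Each organ was fitted on its own, all 4 groups in 1 model, using edgeR 4.0.16 (R 4.3.3; trimmed mean scaling, quasi-likelihood F test, 2-sided, minimum count 10 and total 15, Benjamini-Hochberg adjusted p under 0.05), leaving 15892 genes in liver and 17765 in WAT. All 46 libraries and 19135 genes were fitted together for contrasts between organs. CPM were computed from the counts with this scaling, and 95% intervals come from the SE by the normal approximation. Named are all members, up to 3 genes per other list with the smallest p in liver, those that account for small counts, and 5 genes most like the members. Alternatives were DESeq2 1.42.0, limma 3.58.1 voom with quality weights, other scaling, filters and strand, number terms, fewer groups and left-out libraries. The procedure was tested on simulated data. In 110 pairs of libraries of 1 group, chi-square per degree of freedom was 12.5 to 155, so no pair agreed within sampling noise. Liver depth had a median of 36541828 counts and WAT 25260159. For the mean of the sexes in WAT, the SE was largest for Clec4g (0.741), then Dnase1l3 (0.442) and Oit3 (0.426). The part of read number in these SEs was not tested.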

Additional observations from a re-analysis of the deposited data

Results flagged for a closer look

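Among 80 sets of member values in 1 group, 8 had a library far from the rest, where chance gives about 1 in 20. In female PTP-r liver, library 11 was low for Dnase1l3 (16.6 CPM) and Stab1 (28.9 CPM). It is the library with muscle markers at 231 CPM. In female vehicle liver, library 6 was low for Lyve1 (2.19 CPM), and in male vehicle liver, library 4 was high for Stab2 (45.6 CPM). In female vehicle WAT, library 2 was high for Lyve1 (60.8 CPM), library 3 low for Dnase1l3 (2.31 CPM) and library 6 high for Oit3 (0.651 CPM). In male vehicle WAT, library 3 was low for Clec4g (0.0387 CPM), which is 1 read.

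The fit over both organs called a difference in the response to PTP-r, liver minus WAT, for Gpr182 (-0.65 on the log2 scale) and Cd300lg (-0.87). The liver responses were known when these genes were chosen, so the calls are no independent test.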

How the results depend on the processing

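In female liver the count of members past the threshold, 2, was 4 with no expression filter, 5 with DESeq2 size factors, 6 with DESeq2, 1 when the other groups were dropped and 1 without libraries high in other tissues' markers; leaving out 1 library gave 1 to 6. Over all genes it was 26, against 141 with DESeq2 and 5 when they were dropped. In WAT for the mean of the sexes it was 0, and 1 with limma voom. Between the sexes in vehicle WAT it was 1, against 2 with DESeq2, 4 with limma voom and 4 with only the groups compared, and leaving out 1 library gave 1 to 3. The cause was not tested.

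The numbers in the labels were not shown to pair the libraries. Of 23 pairs of liver and WAT libraries with 1 title number 0 correlated over 0.1, and of 10 pairs with 1 description number 1 did. For 3 of the 23 the library with the same title number was the best match. The check by title number cannot exclude pairing, since liver and fat of 1 mouse need not vary together. With the description number as a replicate block, the count of members was 2 in male liver (6 without it). It was 5 for the mean of the sexes in liver (9 without it). Between the sexes in vehicle WAT it was 2 (1 without it). In male liver, numbers 1, 2 and 5 held only PTP-r libraries, and 3 and 4 only vehicle. Number and treatment were thus partly tied, so the liver counts cannot separate a block from treatment. With sex and title number as a replicate block, Gpr182 and Cd300lg still passed between the organs. No setting reversed a value past the threshold. Lyve1 in liver and Clec4g and Oit3 in WAT had few reads, and the part of read number in their spread was not tested.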
